A study of Mus musculus with 24 samples.

Results

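The 84 genes described here encode the proteins of the cytosolic ribosome or close relatives of them, 52 of the large subunit and 32 of the small subunit. They were chosen by symbol from the 16617 genes of the deposited table: Rpl or Rps with a number and an optional a, x, y, l or l1 ending, the stalk proteins Rplp0 to Rplp2, and Rpsa. Mitochondrial ribosomal proteins, symbols ending in -ps and the Rps6k kinases were not taken. Of the 84 models, 2 (Rps4l and Rpl32l) are pseudogenes in GENCODE vM21, on the GRCm38 (mm10) build.

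Mouse embryonic stem cells of 4 genotypes were compared in 2 states by sequencing of 3′ ends of polyadenylated RNA, with 3 labelled samples in each of 8 groups. Formative cells had been without LIF and the 2 inhibitors ("LIF2i withdrawal") for 63 h, and naive cells had not. The genotypes were MLL3KO_MLL4KO (called knockout), MLL3KO_MLL4fl (floxed), MLL3CD_MLL4CD (catalytic-dead, a reading of the CD in the label) and WT. MLL3 and MLL4 (genes Kmt2c and Kmt2d) methylate histone H3 at enhancers. The knockout and floxed lines both lack MLL3 by name, so knockout against floxed concerns MLL4, whereas floxed against WT includes the loss of MLL3. The labels give the R1 line for WT and catalytic-dead cells and no line for the other genotypes, and they do not say how many clones each genotype stands for. Genotype and line cannot be told apart in floxed against WT.

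A ribosome takes 1 copy of most of its proteins, and cells make their mRNAs in near balance, largely by shared controls. These mRNAs begin with a tract of pyrimidines at the transcription start, the TOP motif, through which mTOR controls their translation. Ribosomal protein genes are also the richest source of processed pseudogenes in mammals, intronless copies made by reverse transcription, so that 1 short read can match many places in the genome. A few genes have true paralogs that serve particular tissues, among them Rpl3l in striated muscle and Rpl10l and Rpl39l in male germ cells.

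The sequences below show how close such relatives can be near the 3′ end, where the tags of these libraries lie. Each line holds the last 60 coding bases, stop codon included, of a member, or the matching stretch of its relative, read from the GENCODE vM21 transcripts. Capitals mark the bases that differ within the pair.
Rps3a1: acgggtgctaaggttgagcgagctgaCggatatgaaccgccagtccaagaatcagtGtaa
Rps3a3: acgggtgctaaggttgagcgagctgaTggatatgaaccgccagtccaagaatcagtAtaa
Rpl10: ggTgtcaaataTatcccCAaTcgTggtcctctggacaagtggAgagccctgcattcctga
Rpl10l: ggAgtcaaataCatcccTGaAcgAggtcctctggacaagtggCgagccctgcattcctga
Rpl39: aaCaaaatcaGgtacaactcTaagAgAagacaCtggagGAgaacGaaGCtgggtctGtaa
Rpl39l: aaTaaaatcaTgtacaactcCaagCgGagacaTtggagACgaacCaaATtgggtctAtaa
The gene Rps3a1 (chromosome 3, 86137940 to 86142702) and the processed pseudogene Rps3a3 (chromosome 13, 108670603 to 108671397) differed at 2 of these bases and at 9 of 795 coding bases. Rpl10 (chromosome X, 74270812 to 74273135) and its retrogene Rpl10l (chromosome 12, 66283379 to 66284401) differed at 7 of the 60 and at 98 of 645 coding bases. Rpl39 (chromosome X, 37082520 to 37085402) and Rpl39l (chromosome 16, 10170226 to 10174911) differed at 12 of the 60 and at 23 of 156 coding bases. A 50-base read can therefore separate either paralog from its partner more readily than Rps3a1 from its copy.

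The deposited table holds 1 column per group, each the authors' mean log2 CPM (a gene's counts relative to its library's total). Whole counts of single libraries were recovered from these means where the values allowed it, for 11554 genes and for 26 members in all groups. Of the 84 members, 65 had library values in naive WT cells and 27 to 37 in the other groups. The remaining, mostly abundant, members have group means only and are described without a test. The libraries held 4808564 to 15425959 counts. The naive WT column averaged 2 libraries. The formative knockout column also held a library of the formative catalytic-dead group (6919314 counts), which was taken out of it, with the formative catalytic-dead mean in its place where that library's own value was not recovered. The SD between libraries of a typical gene with at least 100 counts was 0.16 to 0.26 log2 per group.

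Summed markers of the 2 states fitted the labels. The 9 formative markers in the table (Fgf5, Pou3f1, Otx2 and others) summed to 1668 to 2639 CPM in the formative groups and 108 to 219 CPM in the naive groups. The 10 naive markers (Esrrb, Klf2, Tfcp2l1 and others) summed to 486 to 651 CPM in the formative and 2341 to 2729 CPM in the naive groups. Single markers also followed the labels in each line, except Nr0b1 in the knockout and Dppa3 in the floxed line. Nr0b1 stood at 11.75 CPM in formative and 4.54 CPM in naive knockout cells, and Dppa3 at 12.8 and 8.25 CPM in floxed cells. Fgf8 stood at only 0.821 CPM in formative knockout cells, against 34.8 CPM in formative WT cells. Of the markers shared by both states, Pou5f1, a defining pluripotency factor, was low in every group at 5.58 to 9.54 CPM. The others on that list stood higher. Sox2 ranged from 93.9 to 271.5 CPM over the groups, Sall4 from 118.6 to 221.9 CPM, Lin28a from 46.09 to 447.7 CPM and Utf1 from 10.05 to 196.4 CPM. The 4 fibroblast markers in the table, of 8 listed, summed to 9.74 to 26.3 CPM in the formative and 2.69 to 4.07 CPM in the naive groups, and the part of fibroblast RNA in the results below was not tested.

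The members spanned a wide range of levels. Because 1 tag is made per transcript, CPM can be set side by side between genes without division by length. Among the highest means over the 8 groups were those of the small subunit proteins Rps14 at 5497 CPM, Rps3 at 4524 CPM and Rps20 at 4381 CPM, and of Rpl8 of the large subunit at 3116 CPM. The lowest were Rpl24 at 0.854 CPM, the pseudogene model Rpl32l at 1.46 CPM, Rpl3l at 1.81 CPM, Rpl10a at 2.21 CPM and Rpl10 at 3.22 CPM. In all, 44 members averaged at least 100 CPM and 40 less. Rpl24, Rpl10a and Rpl10 are stoichiometric ribosome components, so their levels stand far below those of partners in the same particle.

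Members with much sequence in common with other genes had the lower values. For each member, windows of 50 bases were taken from 250 bases before to 50 after the stop codon, and the share that also occurs in transcripts of other genes was counted. The 13 members with under 30% of windows shared had a median level of 1076 CPM, and 11 of them reached 100 CPM. The 24 members with 30 to 70% shared had a median of 887 CPM, and 22 reached 100 CPM. The 47 members with 70% or more had a median of 30.2 CPM, and 11 reached 100 CPM. Over the 84 members the share and the log2 level had a Spearman's rho of -0.60 and a Pearson's r of -0.49, given as a description since the genes share libraries and many share sequence. Rpl4, a large subunit protein, had no shared window and 2332 CPM, whereas every window of Rpl10 was shared and Rpl10 stood at 3.22 CPM. The values of highly shared members, also where they are given below, were therefore not read as transcript abundance. The sources used here do not give how reads with several matches were counted.

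**Figure D1:**
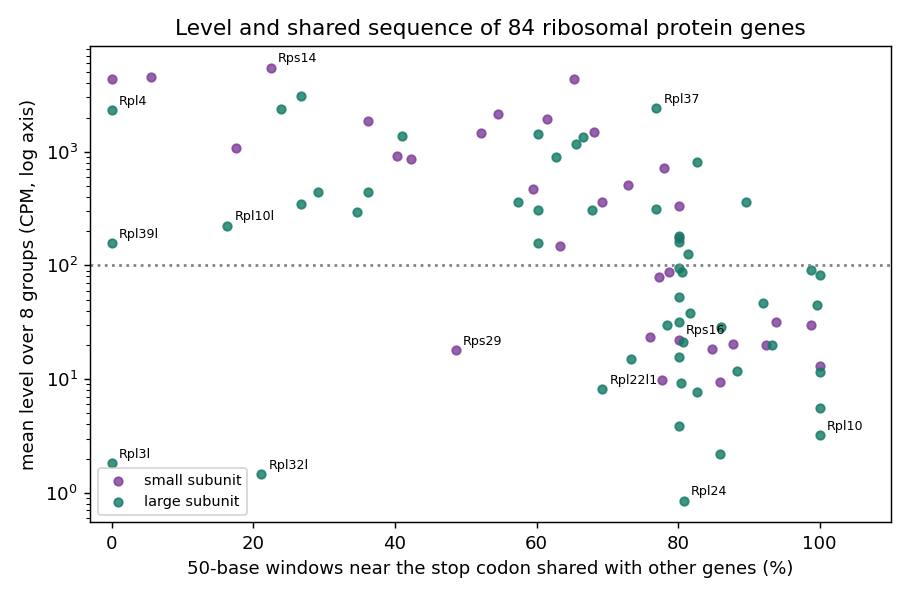
Mean level over 8 groups (CPM, log axis) of the 84 members against the percentage of 50-base windows near the stop codon that other genes share. Purple points are small subunit and green points large subunit members, the dotted line marks 100 CPM, and most points at 70% or more lie below it.

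The start regions differ in another way. The share of genes with a run of at least 8 pyrimidines (C or T, sense strand) within 50 bases either side of the RefSeq start (GRCm38.p6) was 82.5% of the 63 members with an entry, against 39.3% of 27025 genes. The median longest run was 10 bases in members and 7 in all genes. The sequences below run from 40 bases before to 20 after the annotated start, with the longest run in capitals, for 2 members with long runs and for the 2 germ-cell paralogs whose levels are described further on.
Rpl35: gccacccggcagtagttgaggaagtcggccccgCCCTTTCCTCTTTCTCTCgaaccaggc
Rpl15: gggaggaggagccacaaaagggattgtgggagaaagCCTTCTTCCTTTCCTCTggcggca
Rpl39l: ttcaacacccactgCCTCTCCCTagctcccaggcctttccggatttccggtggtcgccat
Rpl10l: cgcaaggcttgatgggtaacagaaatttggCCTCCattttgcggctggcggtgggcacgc
The longest run near the start was 18 bases in Rpl35 (chr2:39005112-39005171), 17 in Rpl15 (chr14:18270967-18271026), 9 in Rpl39l (chr16:10170188-10170247) and 5 in Rpl10l (chr12:66284382-66284441). All but Rpl39l are on the minus strand. Annotated starts can be imprecise, and a run in this window is no evidence of a TOP motif in use.

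The summed levels of the members differed between genotypes as well as between states. In the knockout line the 84 members summed to 48201 CPM in formative and 53383 CPM in naive cells. In the floxed line they summed to 71582 CPM in formative and 54808 CPM in naive cells. In the catalytic-dead line the sums were 65263 CPM in formative and 50586 CPM in naive cells, and in WT cells 57483 CPM in formative and 61995 CPM in naive cells. As a share of all counts this is 4.82% at the lowest and 7.16% at the highest. The formative to naive ratio was thus 1.31 in floxed and 1.29 in catalytic-dead cells, but 0.903 in knockout and 0.927 in WT cells. Sums are made of group means, so they have no error of their own and are given without a test. No member of at least 100 CPM had library values in formative catalytic-dead cells. For these members the formative catalytic-dead mean was taken out of the formative knockout column in place of the shared library's value. The formative knockout sum and its ratios depend on that replacement and were not made with the column as deposited.

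**Figure D2:**
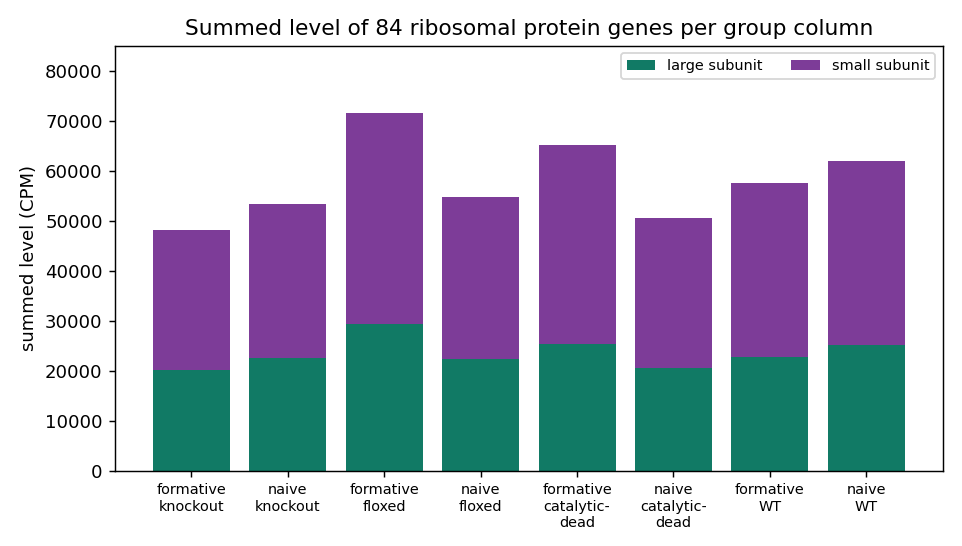
Summed level (CPM) of the 84 members in each group column, with small subunit members stacked in purple on large subunit members in green. The formative floxed bar is the highest at 71582 CPM and the formative knockout bar the lowest at 48201 CPM. For members of at least 100 CPM the formative knockout bar rests on the formative catalytic-dead mean in place of the shared library.

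The gap between the knockout and floxed lines opened in the formative state. Formative knockout cells had 0.673 times the summed level of formative floxed cells, and naive knockout cells had 0.974 times that of naive floxed cells. In formative cells 68 of 84 members were lower in knockout than floxed cells, with a median of -0.38 log2 against 0.07 for all genes. Among the 44 members of at least 100 CPM, 40 were lower and 14 were at least 1.5-fold lower, against 6.06% of all 1981 genes at that level. Over all 84, 19 were at least 1.5-fold lower (background 15.2% of all genes) and 5 at least 1.5-fold higher (background 18.4%). In naive cells the same comparison had a median of 0.01 for the members and 0.01 for all genes. The difference between the 2 transitions had a median of -0.42 for the members and 0.07 for all genes, and 30 members were at least 1.5-fold lower in it (background 18.6%). With the formative knockout column as deposited, the median of formative knockout against floxed cells was -0.32.

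The lowest formative differences are given here as a description, since they are the extremes of this comparison. The formative knockout levels of these members also rest on the formative catalytic-dead mean in place of the shared library. The share of windows in common with other genes was 78.0% in Rps18, 76.9% in Rpl37, 62.8% in Rpl26 and 61.5% in Rps10, and the part of copies in their levels was not tested. Rps18, a small subunit protein, stood at 494 CPM in formative knockout and 1050 CPM in formative floxed cells, against 505 and 674 CPM in the naive knockout and floxed cells. Rps10 stood at 1302 CPM in formative knockout and 2670 CPM in formative floxed cells, and at 1714 and 1917 CPM in the naive ones. Rpl37 stood at 1712 CPM in formative knockout and 3302 CPM in formative floxed cells, with 2255 and 2437 CPM in naive cells. Rpl26, a protein near the exit tunnel, stood at 683 CPM in formative knockout and 1256 CPM in formative floxed cells, with 838 and 787 CPM in naive cells. With Rpl34, described below, these members had the lowest formative differences, from -1.09 (Rps18) to -0.88 (Rpl26) log2. In each of them the naive difference was smaller in size than the formative one. Picking members by their formative difference favors this in advance, so nothing is concluded from it.

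The catalytic-dead line differed from WT in opposite directions in the 2 states. Its summed level was 1.14 times that of WT in formative cells and 0.816 times in naive cells. The median over the members was 0.20 in formative cells, where all genes had 0.03, and -0.19 in naive cells, where all genes had 0.12. In the difference of transitions the median was 0.30 for the members and -0.09 for all genes, and 20 members were at least 1.5-fold higher (background 17.3%). Limited to members of at least 100 CPM that median was 0.51. Rps19, a small subunit protein, stood at 2331 CPM in formative catalytic-dead and 2285 CPM in formative WT cells, and at 1543 CPM in naive catalytic-dead and 2933 CPM in naive WT cells. The floxed line against WT had a median of 0.32 in formative and -0.17 in naive cells, where all genes had 0.01 and 0.02.

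Large and small subunit members had similar medians, a difference that was not tested. In formative knockout against floxed cells the median was -0.38 for the large and -0.33 for the small subunit, and in the floxed transition it was 0.46 and 0.38. In the floxed transition 73 of 84 members were higher in formative cells and 28 at least 1.5-fold higher (background 29%), so the share past that fold was near that of all genes. In either direction 32 members passed the fold, and 17 with median-of-ratios size factors. The share of all genes is not given for these counts, which describe only how the number of members moves with the setting. In the WT transition 52 of 84 were lower, 9 at least 1.5-fold lower (background 17.4%) and 4 at least 1.5-fold higher (background 29.1%). In the knockout transition the median was -0.01, and in the catalytic-dead transition 0.24, where 63 members were higher. All genes had medians of 0.19 and 0.06 there. In the floxed transition the median was 0.42 for the members and 0.13 for all genes, and in the WT transition -0.11 and 0.14. The share of all genes higher or lower by any amount is not given.

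**Figure D3:**
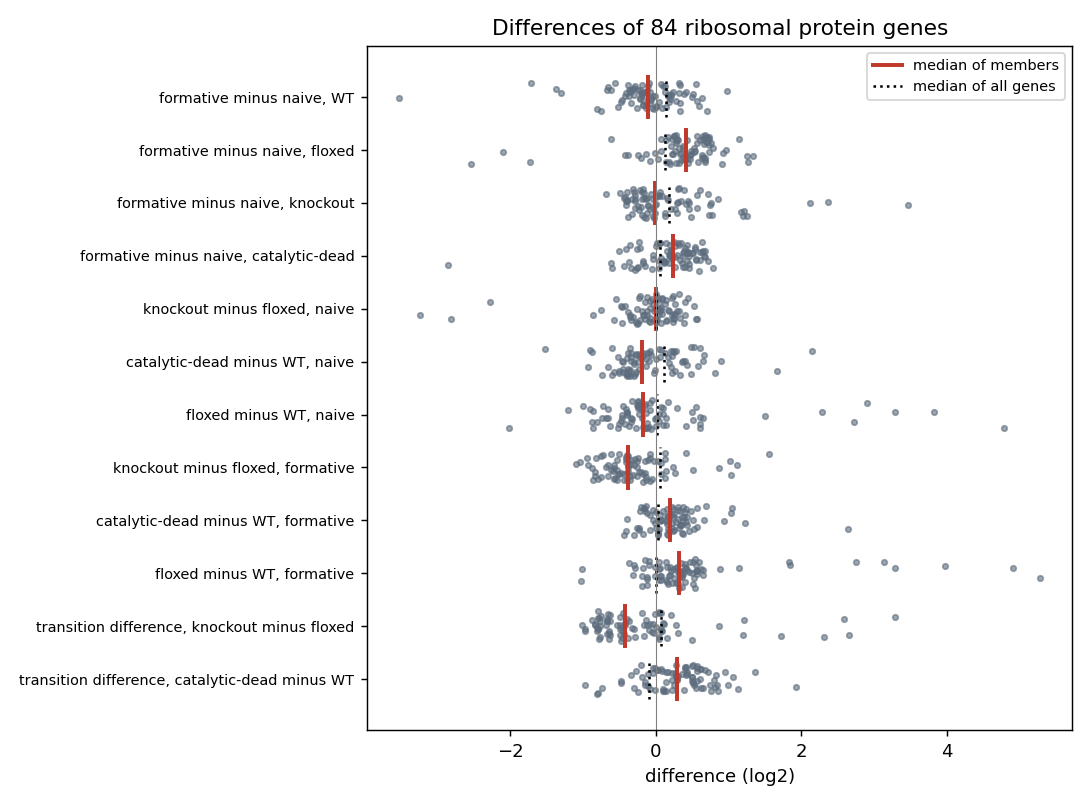
Differences (log2) of the 84 members in each of 12 comparisons, with 1 point per member, the red bar at their median and the dotted bar at the median of all genes. The red bar lies furthest left of the dotted one in the knockout minus floxed difference of transitions (-0.42) and furthest right of it in the catalytic-dead minus WT difference of transitions (0.30).

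The libraries of a group could differ as much as these medians. Over 23 members recovered in every group, without the paralogs and without the members that differ between lines, each library's median position was taken relative to the mean of all libraries. It was -0.08 to 0.24 log2 in the 3 formative knockout libraries and 0.11 to 0.32 in the 3 formative floxed libraries, which overlapped. It was -0.30 to -0.23 in the naive knockout libraries and -0.41 to 0.26 in the naive floxed libraries, a spread of which library a (0.26) formed the top. The formative catalytic-dead libraries lay at -0.10 to 0.35 and the formative WT libraries at -0.21 to 0.07. These are low members, so the abundant members that carry the sums could not be examined by library outside naive WT cells, where the 2 libraries had median deviations of -0.02 and 0.02 log2 over 65 members.

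Among members with library values, tests over all genes found few calls. In the WT transition 3 of 35 tested members passed limma's threshold (background 33.3% of tested genes), in the floxed transition 4 of 27 (35.2%), in the knockout transition 5 of 27 (29.1%) and in the catalytic-dead transition 1 of 31 (30.9%). Between lines in naive cells, 2 of 27 passed in knockout against floxed (19%), 1 of 37 in catalytic-dead against WT (12.4%) and 0 of 29 in floxed against WT (5.37%; 2 at an unadjusted p under 0.05). In formative cells, 1 of 26 passed in knockout against floxed (18.5%), 0 of 31 in catalytic-dead against WT (9.1%; 3 unadjusted) and 1 of 27 in floxed against WT (10.1%). All shares lie below the background, for members with library values only. The 7 members that separate the lines, described below, had no library values in floxed cells. They were thus not among those tested in floxed against WT. Their differences of floxed from WT group means ran from 1.51 (Rpl17) to 4.78 (Rpl34) log2 in naive cells. In formative cells they ran from 1.85 (Rpl17) to 5.29 (Rpl34). Of the 21 calls, including 3 on differences of transitions (2 of 26 tested for knockout, background 9.83%, and 1 of 31 for catalytic-dead, background 3.95%), 6 passed under every alternative setting in which they were tested and with each library left out. The 3 Rpl3l calls among them were not tested under a stricter filter on low values, which Rpl3l did not pass.

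Rpl3l, the striated muscle relative of the large subunit protein Rpl3, gave 3 of those 6 calls, at very low levels. Its libraries held 1.604, 2.28 and 1.87 CPM in formative knockout and 0.519, 0.799 and 0.866 CPM in naive knockout cells. They held 1.30, 0.508 and 0.840 CPM in formative floxed and 3.63, 5.48 and 3.78 CPM in naive floxed cells. The states did not overlap in either line and lay in opposite order. Rpl3l fell by 2.09 log2 in the floxed transition (SE 0.36, adjusted p = 3.13e-05) and rose by 1.20 in the knockout transition (SE 0.42, adjusted p = 0.0328). In naive cells it fell by 2.27 log2 in knockout against floxed cells (SE 0.37, adjusted p = 4.52e-05).

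Rpl3l also had formative catalytic-dead values of 2.58, 1.99 and 2.17 CPM and naive catalytic-dead values of 1.01, 1.52 and 1.64 CPM. Formative WT libraries held 1.01, 0.883 and 1.06 CPM and naive WT libraries 2.60 and 2.83 CPM. It fell by 1.30 in the WT transition (adjusted p = 0.0123). These values rest on 6 to 57 counts per library. The knockout call ended without formative knockout library b (1.08, adjusted p = 0.1) or c (1.21, adjusted p = 0.0623) and without naive knockout library a (1.02, adjusted p = 0.129), b (1.26, adjusted p = 0.0607) or c (1.31, adjusted p = 0.0508), with a range of 0.0168 to 0.129 over its alternatives. Median-of-ratios size factors also ended the knockout call (1.01, adjusted p = 0.0807). The WT call was lost without naive WT library b (-1.24, adjusted p = 0.0596, the highest of its alternatives, which began at 0.0058). No window of Rpl3l near its stop codon occurred in annotated transcripts of other genes.

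Rpl11, which with Rpl5 and 5S RNA binds the p53 regulator Mdm2 when ribosome assembly fails, was higher in formative floxed cells. Its libraries held 22.3, 31.4 and 25.2 CPM there, against 11.2, 13.8 and 10.1 CPM in formative WT cells, with no overlap. Rpl11 rose by 1.15 log2 in formative floxed against WT cells (SE 0.23, adjusted p = 0.00133), a call kept under every alternative. Naive floxed libraries held 22.2, 13.6 and 14.8 CPM, and Rpl11 rose by 0.66 in the floxed transition (adjusted p = 0.0231). That call was lost without formative floxed library b (0.52, adjusted p = 0.109) and without naive floxed library b (0.52, adjusted p = 0.113) or c (0.58, adjusted p = 0.0911), over a range of 0.00655 to 0.113. With median-of-ratios size factors the floxed transition of Rpl11 did not pass either (0.53, adjusted p = 0.0687). Of the windows of Rpl11 80.1% are shared with other genes.

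Rpl23a, a tunnel exit protein where the signal recognition particle docks, had its lowest level among the 4 knockout and floxed groups in formative knockout cells. Its libraries held 15.8, 15.6 and 16.4 CPM in formative knockout, 37.6, 26.7 and 24.4 CPM in formative floxed, 33.7, 21.9 and 23.1 CPM in naive knockout and 27.6, 20.9 and 21.8 CPM in naive floxed cells. The formative knockout libraries lay below all libraries of the other 3 groups. Other genes share 80.7% of the windows of Rpl23a. Rpl23a fell by 0.86 in formative knockout against floxed cells (SE 0.23, adjusted p = 0.0102) and by 0.69 in the knockout transition (adjusted p = 0.0284). The first call was lost without formative floxed library a (-0.67, adjusted p = 0.0638, the highest of a range from 0.00361). The second was lost without formative knockout library a (-0.68, adjusted p = 0.0719), b (-0.67, adjusted p = 0.0794) or c (-0.71, adjusted p = 0.0626) or naive knockout library a (-0.49, adjusted p = 0.156), over a range of 0.00503 to 0.156.

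The calls of Rps23 and Rpl12 were each lost when any 1 of several libraries was left out. In each of these genes 98.8% of windows are shared with other genes. Rps23, a decoding-site protein, held 33.2, 31.8 and 51.0 CPM in naive knockout and 29.2, 22.1 and 25.8 CPM in naive floxed cells and rose by 0.56 (adjusted p = 0.0264). Leaving out naive knockout library c (0.34, adjusted p = 0.232) ended the call, as did leaving out naive floxed library b (0.46, adjusted p = 0.108) or c (0.57, adjusted p = 0.061), over a range of 0.0156 to 0.232. With only the groups compared, Rps23 did not pass (adjusted p = 0.0879). Rpl12, which lies at the base of the stalk, held 83.0, 76.4 and 70.1 CPM in naive catalytic-dead and 116.7 and 114.4 CPM in naive WT cells and fell by 0.60 (adjusted p = 0.0313). That call was lost without naive catalytic-dead library b (-0.60, adjusted p = 0.0846) or c (-0.54, adjusted p = 0.117) and without naive WT library a (-0.58, adjusted p = 0.089) or b (-0.61, adjusted p = 0.0678), over a range of 0.0118 to 0.117.

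In the WT transition Rpl35 rose by 0.98 (60.6, 31.4 and 67.0 CPM in formative and 35.2 and 18.4 CPM in naive libraries, adjusted p = 0.0402), although its formative library b lay below naive library a. Rpl35 did not pass with median-of-ratios size factors (0.83, adjusted p = 0.0816), a pseudocount of 0.5 (adjusted p = 0.0514) or a stricter filter on low values (adjusted p = 0.0529). The call was lost without naive WT library b (0.51, adjusted p = 0.439) and without formative WT library a (0.84, adjusted p = 0.123) or c (0.77, adjusted p = 0.151), over a range of 0.00562 to 0.439. Rpl30 fell by 0.75 there (6.99, 7.75 and 7.17 CPM in formative and 11.3 and 13.6 CPM in naive libraries, adjusted p = 0.0172), a call lost without formative WT library a (-0.72, adjusted p = 0.051) or naive WT library b (-0.62, adjusted p = 0.128), over a range of 0.00529 to 0.128. In the catalytic-dead transition Rpl3 rose by 0.61 (14.2, 13.3 and 15.5 CPM in formative and 7.94, 10.8 and 9.35 CPM in naive libraries, adjusted p = 0.036). It was lost without formative catalytic-dead library a (0.62, adjusted p = 0.0691) or c (0.56, adjusted p = 0.102) and without naive catalytic-dead library a (0.50, adjusted p = 0.154) or c (0.62, adjusted p = 0.083), over a range of 0.0233 to 0.154. Median-of-ratios size factors also ended the Rpl3 call (0.54, adjusted p = 0.063). Other genes share 99.6% of the windows of Rpl35, 81.7% of Rpl30 and 80.1% of Rpl3. Rpl30 and Rpl3 are also among the members, described below, with lower levels in WT and catalytic-dead than in floxed and knockout cells.

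Rps16, Rps4x and Rpl22l1 rose in the knockout transition, and they also moved together between libraries of 1 group. Rps16 held 54.8, 95.8 and 31.0 CPM in formative knockout and 11.6, 13.8 and 11.9 CPM in naive knockout libraries and rose by 2.12 log2 (SE 0.63, adjusted p = 0.0111). Rps4x, the X-linked small subunit protein, held 22.8, 36.3 and 11.4 CPM in formative and 3.95, 4.35 and 3.59 CPM in naive knockout libraries and rose by 2.36 (adjusted p = 0.00658). Rpl22l1, the paralog of Rpl22, held 25.7, 59.1 and 24.1 CPM in formative and 2.79, 4.08 and 1.98 CPM in naive knockout libraries and rose by 3.46 (SE 0.93, adjusted p = 0.00511). The states did not overlap in any of them. Other genes share 80.1% of the windows of Rps16, 77.7% of Rps4x and 69.3% of Rpl22l1. The Rps16 call was lost without formative knockout library b (1.72, adjusted p = 0.0647, the highest of a range from 1.61e-06), and the other 2 calls held under every alternative.

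Within the naive floxed group the same 3 members differed between libraries by more than the state means of any line. Rps16 held 43.9, 3.27 and 15.1 CPM in naive floxed libraries a, b and c, Rps4x 20.2, 2.79 and 6.80 CPM, and Rpl22l1 17.4, 0.673 and 8.46 CPM. In formative floxed libraries they held 11.8, 56.6 and 23.4 CPM, 6.11, 22.2 and 11.2 CPM, and 2.90, 35.1 and 13.2 CPM in that order of genes. In formative catalytic-dead libraries Rps16 held 19.4, 75.2 and 19.2 CPM and Rpl22l1 11.6, 52.0 and 12.7 CPM. Naive floxed library a and the libraries b of formative floxed, knockout and catalytic-dead cells were the high ones each time.

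Over 23 libraries the deviations of Rps4x and Rpl22l1 from their group means had a Pearson's r of 0.97 and 0.94 with those of Rps16, a description without a test. Of 25 members compared, 6 exceeded 0.8, against 1.28% of the genes compared. Genes outside the ribosome did the same, led by the respiratory chain subunit Cox5a at 0.97 and Gde1 and Dynlt1f at 0.955 and 0.953. The part of this shared variation between libraries in the calls of the knockout transition was not tested.

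Rps12 rose by 0.55 in the floxed transition (34.8, 54.7 and 40.9 CPM in formative and 37.3, 22.4 and 29.8 CPM in naive libraries, adjusted p = 0.0336), with overlapping libraries. It was lost without formative floxed library b (0.37, adjusted p = 0.201) or c (0.58, adjusted p = 0.0522) and without naive floxed library b (0.36, adjusted p = 0.209) or c (0.56, adjusted p = 0.0658), over a range of 0.0107 to 0.209. With only the 2 groups compared, Rps12 did not pass (adjusted p = 0.0878), nor with median-of-ratios size factors (0.42, adjusted p = 0.108). Other genes share 93.9% of its windows.

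The germ-cell paralogs Rpl10l and Rpl39l differed strongly between states and lines. Rpl10l stood at 65.8 CPM in formative and 60.03 CPM in naive knockout cells, at 72.7 CPM in formative and 420 CPM in naive floxed cells, at 167 CPM in formative and 1199 CPM in naive catalytic-dead cells, and at 148 CPM in formative and 1703 CPM in naive WT cells. Rpl39l stood at 62.8 CPM in formative and 34.6 CPM in naive knockout cells, at 98.8 CPM in formative and 327 CPM in naive floxed cells, at 180 CPM in formative and 229 CPM in naive catalytic-dead cells, and at 199 CPM in formative and 652 CPM in naive WT cells. Both were lower in formative than naive cells in the floxed, catalytic-dead and WT lines, and both had their lowest naive level in knockout cells. The differences of naive knockout from floxed cells were -2.81 log2 for Rpl10l and -3.24 for Rpl39l. Library values were recovered for Rpl39l in naive knockout cells only (37.1, 33.2 and 32.9 CPM) and for Rpl10l in none, so neither was tested.

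The partners of these paralogs did not follow them. Rpl39, a short protein of the exit tunnel, stood at 399 and 397 CPM in formative and naive knockout cells, 692 and 408 CPM in formative and naive floxed cells, 639 and 372 CPM in formative and naive catalytic-dead cells and 448 and 287 CPM in formative and naive WT cells. Rpl10, whose windows are all shared with other genes, stood at 2.13 to 4.09 CPM in all groups. Over the 8 group means Rpl10l and Rpl39l had a Pearson's r of 0.87 with each other. Among genes of at least 10 CPM with a range of at least 2 log2 units, the patterns most like Rpl10l were those of Alpl (0.96), an alkaline phosphatase of primordial germ and stem cells, Ak4 and Plekhd1 (0.94 each). Those most like Rpl39l were Ppfia4 (0.99), Tmem8 and Plekhg5 (0.97 each).

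**Figure D4:**
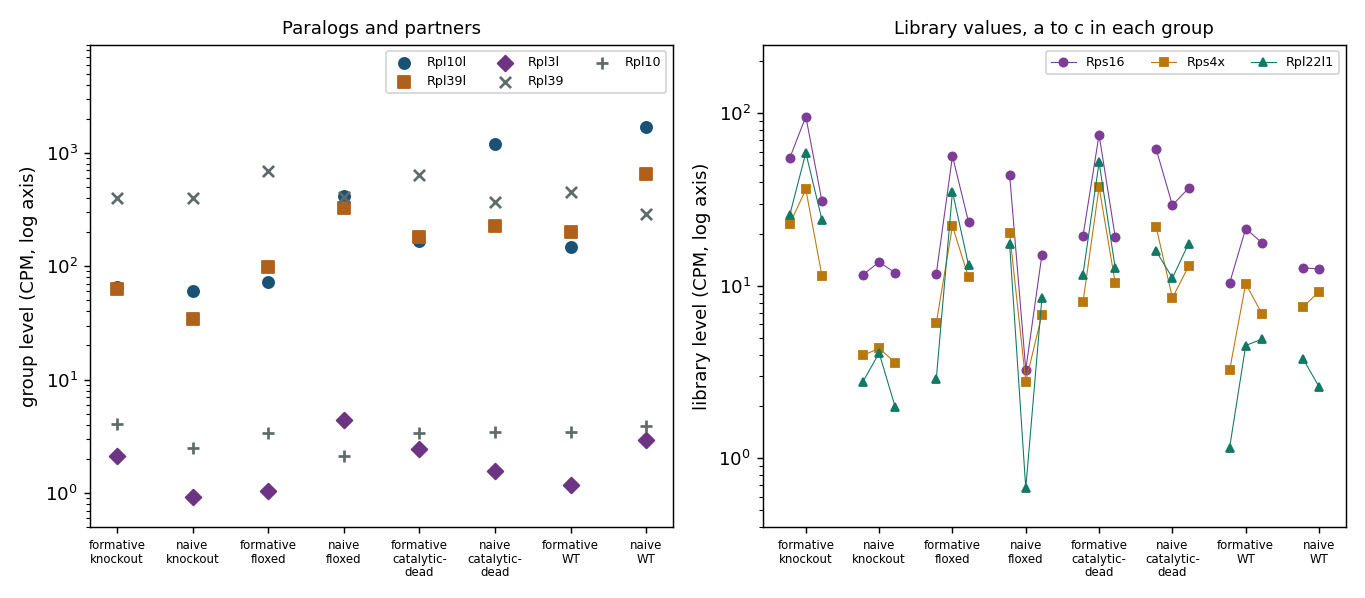
Left, group levels (CPM, log axis) of the paralogs Rpl10l, Rpl39l and Rpl3l and of the partners Rpl39 and Rpl10, where Rpl10l and Rpl39l are highest in naive WT cells (1703 and 652 CPM). Right, library levels (CPM, log axis) of Rps16, Rps4x and Rpl22l1, joined from library a to c within each group, where the 3 members peak in the same libraries.

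The remaining paralogs had narrower ranges. Rps4l, a pseudogene model related to Rps4x, stood at 753 to 1761 CPM over the groups and was lower in formative than naive cells of all 4 lines. Rps27l, a p53-responsive relative of Rps27, stood at 670 to 1402 CPM and was higher in formative than naive cells of each line. Rpl7l1, a nucleolar relative of Rpl7, stood at 224 to 418 CPM and was lower in formative cells of each line. Rps27 and Rps4x themselves, with 100% and 77.7% of windows shared, stood at 10.1 to 15.2 and 4.16 to 21.4 CPM. None of the 3 paralogs could be tested between states.

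A set of 7 members separated the 2 pairs of lines whatever the state. Rpl34 stood at 1436 and 1694 CPM in formative and naive knockout cells and 2737 and 1641 CPM in formative and naive floxed cells, against 82.1 and 71.5 CPM in formative and naive catalytic-dead cells and 70.2 and 59.6 CPM in formative and naive WT cells. The lowest floxed or knockout value was 17.5 times the highest WT or catalytic-dead value. The same gap was 7.83-fold for Rps3a1, 7.49-fold for Rpl30, 7.44-fold for Rpl29, 6.55-fold for Rps2, 4.28-fold for Rpl3 and 2.69-fold for Rpl17. This is 8.33% of the members, while a gap of at least 2-fold was seen in 0.271% of all genes in this direction and 0.397% in the opposite one. The criterion was chosen after the values were seen, so no test was made.

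The pseudogene Rps3a3, which shares 32% of the windows of Rps3a1, ran the other way. Rps3a3 stood at 96.4 and 71.3 CPM in formative and naive knockout cells and 113 and 106 CPM in formative and naive floxed cells, against 2660 and 1654 CPM in formative and naive catalytic-dead cells and 2311 and 2797 CPM in formative and naive WT cells. Rps3a1 itself stood at 96.9 and 57.5 CPM in formative and naive knockout, 116 and 71.3 CPM in formative and naive floxed, 6.53 and 6.08 CPM in formative and naive catalytic-dead and 7.35 and 7.31 CPM in formative and naive WT cells. The 2 sequences, printed above, differ at 2 of the last 60 coding bases. The sum of Rps3a1 and its 7 copies in the table was 142 to 250 CPM in floxed and knockout groups and 1673 to 2816 CPM in the others. With their copies in the table added, the other 6 members still did not overlap between the pairs of lines. Rpl34 with 4 copies summed to 1439 to 2743 CPM in floxed and knockout groups and 67.3 to 89.7 CPM in the others. The smallest gaps left were those of Rpl3 and Rpl17: Rpl3 with 4 copies summed to 100.3 to 149 CPM against 51.4 to 73.4 CPM, and Rpl17 with 13 copies to 99.0 to 143 CPM against 49.9 to 67.8 CPM. These are the lines without and with an R1 label, and genotype, strain and line cannot be told apart here.

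**Figure D5:**
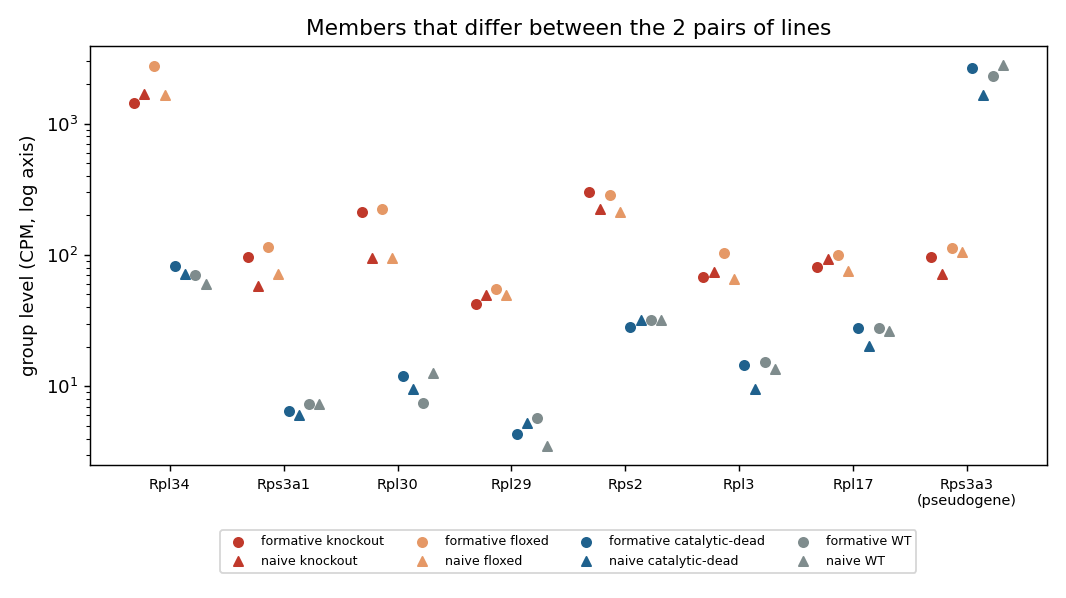
Group levels (CPM, log axis) of the 7 members that separate the pairs of lines and of the pseudogene Rps3a3, with circles for formative and triangles for naive groups. Floxed and knockout points lie above catalytic-dead and WT points in all 7 members and below them in Rps3a3.

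Other genes of the translation machinery were described from lists of known members. Of 20 other TOP mRNAs in the table (elongation factors, Tpt1, Btf3 and others), the median was -0.19 log2 in formative knockout against floxed cells, 0.34 in the floxed transition, 0.02 in the knockout transition and 0.19 in the WT transition. Of 4 tested in the knockout transition (background 29.1%) 2 rose, Btf3 by 2.17 and Fau, which encodes the small subunit protein eS30, by 1.15. Tpt1 was the 1 of 4 tested that rose in the floxed transition (by 0.80, background 35.2%) and in the catalytic-dead transition (by 0.79, background 30.9%).

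Ribosome biogenesis genes had medians opposite in sign to those of the ribosomal proteins in several comparisons. The 25 biogenesis genes had a median of 0.12 in formative knockout against floxed cells, where the ribosomal proteins had -0.38. Their median was -0.18 in formative catalytic-dead against WT cells, -0.24 in formative floxed against WT cells and -0.37 in the catalytic-dead minus WT difference of transitions, where the ribosomal proteins had 0.20, 0.32 and 0.30. In the WT transition it was 0.15. Of the 2 tested in formative catalytic-dead against WT cells (background 9.1%), Bop1, a factor of large subunit assembly, fell by 0.91 (adjusted p = 0.00149). The 13 polymerase I genes had medians between -0.29 and 0.01 over the 12 comparisons. Polr1b, its second largest subunit, fell by 0.64 in formative catalytic-dead against WT cells (adjusted p = 0.00463) and by 0.50 in formative floxed against WT cells (adjusted p = 0.0249).

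The 76 mitochondrial ribosomal protein genes had a median of -0.18 in formative knockout against floxed cells and 0.01 in naive cells. Of 12 tested in the formative comparison (background 18.5%), 1 fell, Mrpl22 by 0.69 (adjusted p = 0.00325). In the floxed transition 4 of 13 rose, a share near the background of 35.2%, among them Mrps33 by 0.97 and Mrpl27 by 0.79. Among 15 regulators, Myc, a driver of ribosome synthesis, rose in each transition, by 3.69 in knockout, 1.63 in floxed, 1.99 in catalytic-dead and 3.15 in WT cells (adjusted p = 4.07e-05, 0.0322, 0.0124 and 0.00174). Of these regulators 6 were tested in the knockout (background 29.1%), 5 in the floxed (35.2%), 7 in the catalytic-dead (30.9%) and 5 in the WT transition (33.3%). Rps6kb2 fell by 1.09 in the WT (adjusted p = 0.00425) and by 0.98 in the floxed transition (adjusted p = 0.00765). Trp53 fell by 0.78 in the catalytic-dead transition (adjusted p = 0.0154). Trp53 also rose by 0.68 in formative knockout against floxed cells (adjusted p = 0.0464, 6 tested, background 18.5%). Mxd3 rose by 1.29 in formative catalytic-dead against WT cells (adjusted p = 0.00768, 5 tested, background 9.1%).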

How the data were processed

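The authors deposited 1 table of log2 CPM values, each the mean of a group's libraries with a prior count of 2. Per the labels' protocols, libraries came from 200 ng of total RNA with a 3′ kit. Per the submitters' processing notes, cutadapt 2.5, STAR, featureCounts (Subread 1.6.4), FastQC 0.11.8, MultiQC and DESeq2 1.34.0 were used with mm10. Strand and multiple-match settings are not given in the sources used here. Library sizes and whole counts were recovered from the 9 decimals, accepting a single solution within 0.7 to 3 log2 where at most 0.3 were expected by chance. Such windows can make libraries of a group look alike. Differences were tested with limma 3.58.1 (R 4.3.3), 1 model of 8 groups, weights from the SD trend (span 0.3), and Benjamini-Hochberg adjustment over all tested genes at 0.05. A gene needed the CPM of 10 counts in 3 libraries. Recovery and test were checked on simulated data, in which genes varied independently and little between libraries. That check does not cover members whose libraries vary widely or together. Examples are Rpl22l1 and Rps16 in naive floxed cells (SD 2.26 and 1.84 log2). Adjusted p-values are limma's throughout, and rose and fell mean past that threshold. P-values measure the spread between labelled replicates, prepared independently per the series' text. Named members are the highest and lowest in level, the extremes and calls of each comparison, and the paralogs. Members and lists were chosen with earlier results of these data known. Values of some single members are not reported here.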

Additional observations from a re-analysis of the deposited data

Results flagged for a closer look

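Of the members tested, 2 had transitions that differed between lines. Rpl3l had a difference of 3.29 log2 between the knockout and floxed transitions (adjusted p = 0.000199, 0.00012 to 0.00174 over its alternatives), with formative libraries above naive ones in the knockout line and below them in the floxed line. It also had a difference of 1.93 between the catalytic-dead and WT transitions (adjusted p = 0.0442). That call was lost without any 1 of the libraries concerned (1.75 to 2.05), without weights, with a pseudocount of 0.5 and in a fit of its own 4 groups, over a range of 0.0362 to 0.109. Rpl23a had a difference of -1.01 between the knockout and floxed transitions (adjusted p = 0.0406). It was lost without any 1 of formative knockout libraries a, b and c (-1.03 to -0.99), without formative floxed library a (-0.82), without naive knockout library a (-0.81) and without naive floxed library b (-0.93) or c (-0.96), over a range of 0.0291 to 0.121.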

How the results depend on the processing

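The direction of the median over the members held in 11 of 12 comparisons under the alternatives run. The exception was the knockout transition, at -0.01, against 0.07 with the formative knockout column as deposited. Median-of-ratios size factors lowered the median to -0.25 in the WT and -0.20 in the knockout transition. In the catalytic-dead minus WT difference of transitions the median was 0.51 over members of at least 100 CPM. Leaving out the 7 members that separate the lines, or keeping members with under 30% of windows shared, both chosen after seeing the data, left ratios of summed levels at 0.676 to 1.39 and 0.664 to 1.37 (0.673 to 1.39 with all). Without Rps14 the summed share was 5.57% in naive WT, 5.14% in formative WT and 4.89% in naive knockout cells.

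The share of all genes past the limits in this paragraph was not computed. The counts therefore describe only how the number of members moves with the limit, and not a result about the members. At a fold limit 25% above 1, members past it in either direction numbered 36 in the knockout, 45 in the catalytic-dead, 56 in the floxed and 34 in the WT transition. They numbered 23 in knockout against floxed, 46 in catalytic-dead against WT and 44 in floxed against WT naive cells. In formative cells the counts were 54, 31 and 44 for the same 3 comparisons, and 48 in the catalytic-dead difference of transitions. At a limit of 2 the transitions had 7 (knockout), 1 (catalytic-dead), 7 (floxed) and 4 (WT), the naive comparisons 3, 3 and 9, formative knockout against floxed 6, formative catalytic-dead against WT 4, and the differences of transitions 8 (knockout) and 4 (catalytic-dead). With size factors 8 members passed 1.5-fold in the catalytic-dead transition and 17 in the floxed one.

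Counts of members called by limma also moved with the setting. The share of all tested genes called under each setting is not given beside them. These counts therefore describe only how the number of members moves, and not a result about the members. With only the groups compared, 8 were called in the knockout and 2 in the floxed transition, 1 in naive knockout against floxed, 3 in naive catalytic-dead against WT, 4 in formative knockout against floxed, 1 in formative catalytic-dead against WT and 0 in the catalytic-dead difference of transitions. With size factors calls numbered 0 in the catalytic-dead transition, 2 in the floxed one and 2 in formative knockout against floxed. A stricter filter gave 1 in naive knockout against floxed, 2 in formative knockout against floxed, 1 in formative catalytic-dead against WT and 1 in the knockout difference of transitions. Without weights 1 was called in formative catalytic-dead against WT and 0 in the catalytic-dead difference of transitions, where a pseudocount of 0.5 also gave 0. With single libraries left out, calls ranged from 2 to 5 in the knockout, 0 to 2 in the catalytic-dead, 1 to 6 in the floxed and 0 to 5 in the WT transition. They ranged from 1 to 2, 0 to 2 and 0 to 1 in the naive comparisons, 1 to 3, 0 to 1 and 1 to 3 in the formative ones, and 1 to 3 (knockout) and 0 to 0 (catalytic-dead) in the differences of transitions. Fewer samples enter the fits with a library left out. For the other settings the cause was not tested. No paired analysis was possible because the deposited columns carry no replicate numbers. Depth limits the low members, such as Rpl3l with 6 to 57 counts per library, and abundant members have no library values.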
